A study of Mus musculus with 6 samples.

Results

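Homeobox and paired-box genes outside the Hox clusters were followed in skin epithelium of mice labelled as double knockouts of the histone methyltransferases Ezh1 and Ezh2. The members were taken by symbol: genes named Pax, Lhx, Irx, Dlx, Emx, Otx, Meis, Alx, Prrx, Barx, Pou3f or Pou4f with a number, the sine oculis genes Six2 to Six6, Nkx2 and Nkx6 genes, and En1 and En2, with Lhx2 and Dlx3 left out. This gave 71 of the 18193 genes measured, of which 62 are protein-coding and 9 are noncoding transcripts named after a neighbouring homeobox gene, such as Dlx4os. RNA came from FACS-sorted skin cells of 14-day-old mice on a mixed C57B6 and CD1 background, and was read on 6 Affymetrix arrays. There was 1 array for each of 3 cell populations in each of 2 genotypes, labelled Ezh1/2 WT and Ezh1/2 2KO. The populations were basal epidermis (the layer that renews the epidermis), matrix (the proliferating bulb of the hair follicle) and ORS (outer root sheath, the follicle's outermost layer). The labels give female mice for 2KO basal epidermis and both sexes for the other arrays. They give no promoter or Cre line, no exons deleted and no number of mice pooled. With 1 array a group there is no replicate check and no test, and a gene is described as higher or lower where 2KO and WT differ at least 2-fold.

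Homeobox proteins bind DNA through a homeodomain, and Pax proteins through a paired domain that some of them combine with a homeodomain. Most are made in a restricted region or cell lineage of the embryo, such as the neural tube, eye, limb or gut, and specify what its cells become. In other tissues their genes are classic targets of Polycomb repressive complex 2, whose catalytic subunits are Ezh1 and Ezh2. The complex methylates lysine 27 of histone H3 and keeps such genes silent. A few of these genes also work in normal skin, where Pou3f1 (Oct6) is a POU factor of keratinocytes and several Dlx factors act in the hair bulb.

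Values are MAS5 signals on a linear scale, 1 per probe set and array, and each gene was read from its brightest probe set. Signals under the median of all probe sets, 83.2 units, were raised to that floor before a ratio was taken, so a fold with 1 side under the floor is a lower bound and is written as at least N-fold. A gene under the floor on both arrays of a pair has no fold, and a gene is called silent on an array where it is under the floor. Where pairs of signals are listed without labels, WT comes first. Signals of different genes come from different probes and are not set against each other as amounts of RNA.

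Both targeted genes read lower in 2KO than in WT in each population. Ezh2 signals in basal epidermis, matrix and ORS were 2563, 3578 and 2151 in WT and 432, 1725 and 378 in 2KO. Ezh2 was thus 5.93-fold, 2.07-fold and 5.69-fold lower, and still well over the floor in all 3 populations. Ezh1 read 401, 317 and 380 in WT and 57.4, 89.4 and 51.6 in 2KO, over the floor in 2KO matrix alone. Markers of the 3 populations were at their highest summed level in the population they mark, in WT, though narrowly so for ORS. The 7 ORS markers summed to 52594 in WT ORS and 49062 in WT basal epidermis. Krt15, 1 of these 7, was brighter in WT basal epidermis (28535) than in WT ORS (22416). For 7 basal markers the sums were 137209 in WT basal epidermis and 76239 in WT ORS. Among these 7 are Krt1 and Krt10, keratins of the suprabasal layers. They read 16394 and 28000 in WT basal epidermis and 732 and 3904 in WT ORS, a large part of the gap. Krt5, Krt14, Itga6, Itgb4 and Col17a1 were each brighter in WT basal epidermis too. For 7 matrix markers the sum was 51339 in WT matrix against 2766 in WT basal epidermis and 3018 in WT ORS. The 2KO matrix array differed from the WT matrix array in its markers. There 7 basal markers summed to 44733 against 20717 in WT matrix, 7 ORS markers to 29605 against 10265, 8 fibroblast markers to 36884 against 20105, 6 muscle markers to 3137 against 528, and 7 immune markers to 5215 against 1105. In basal epidermis and ORS the fibroblast sums were 16710 and 16943 in WT and 13595 and 23376 in 2KO, and the muscle sums lay between 418 and 686. The immune sums there were 8385 and 4148 in WT and 6527 and 5857 in 2KO. The immune sum of 2KO matrix lay within that range, and that of WT matrix under it. In sorted bulk samples, more cells of a type and more RNA per cell cannot be told apart.

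Most members were silent or dim in wild-type skin. Among WT arrays the floor was reached by 14 members on that of basal epidermis, by 16 on that of matrix and by 17 on that of ORS, of 71 members, while 57.4% to 60.5% of all genes did. Of the members, 12 reached it on all 3 WT arrays: Irx1, Irx2, Irx3, Irx4, Irx5, Pou3f1, Dlx2, Dlx5, Meis1, Nkx2-3, Nkx2-6 and Six5. At the other end, 28 members (39.4%) stayed under the floor on all 6 arrays, against 30.5% of all genes. Among those 28 were the Pax genes Pax4, Pax5 and Pax8, the thyroid and lung factor Nkx2-1, the eye factor Six6, and Pou3f2, Pou3f4 and Pou4f3. For these, no level can be given beyond the bound that the floor sets.

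**Figure D1:**
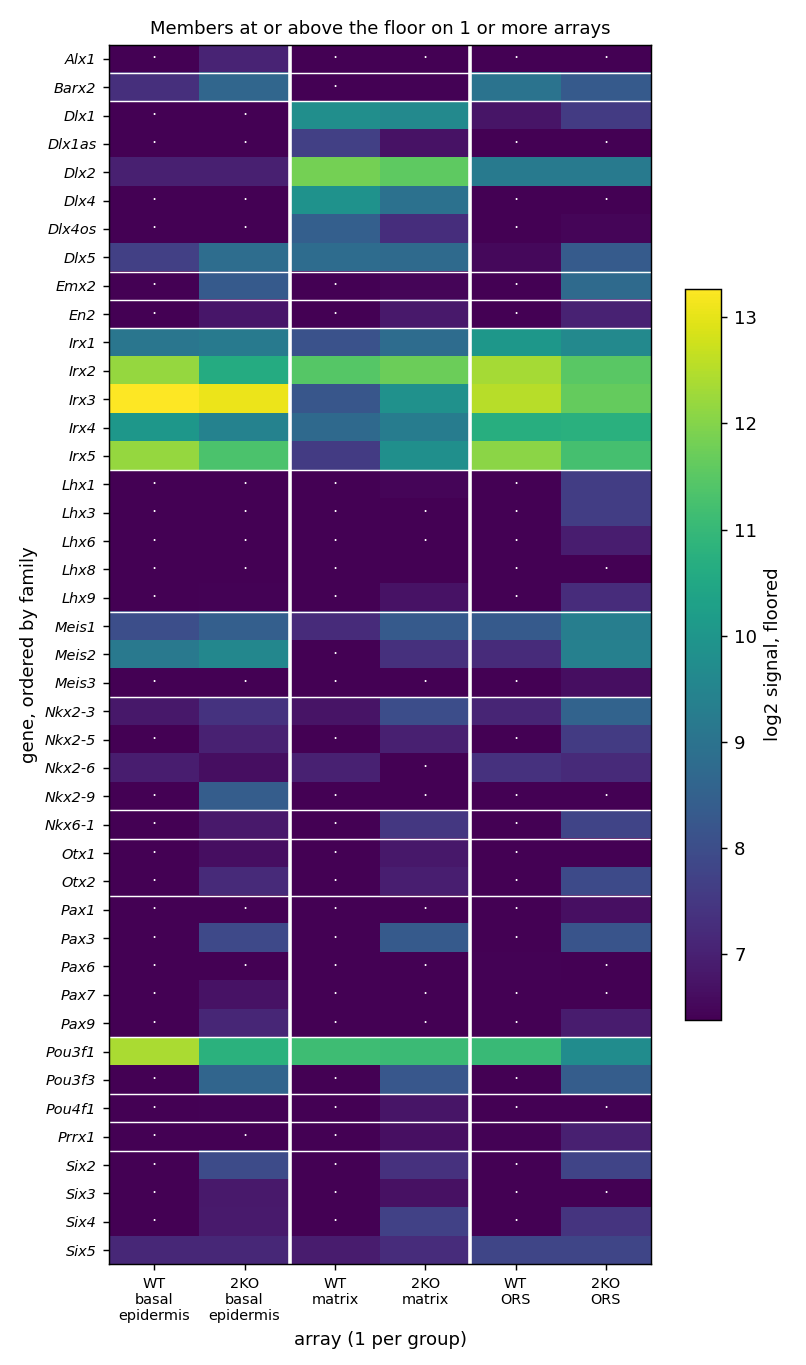
Log2 signal (colour scale, raised to the floor) of the 43 members that reached the floor on at least 1 of the 6 arrays, with genes in rows by family and arrays in columns, WT beside 2KO in each population. Dots mark signals under the floor; the Irx genes and Pou3f1 are bright in both genotypes, Dlx1, Dlx2 and Dlx4 are brightest in matrix, and Pou3f3, Pax3, Emx2, Six2 and Otx2 lose their dots in 2KO.

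More members reached the floor in 2KO than in WT in each population: in basal epidermis 31 did against 14, in matrix 33 against 16, in ORS 34 against 17. The share of all genes rose as well, to 61.3% from 58.5%, to 62.7% from 57.4% and to 63.6% from 60.5%. The median member signal was 63.1 against 22.8, 73.2 against 25.6, and 81.7 against 25.8, still under the floor on all 6 arrays. Over all genes the median signal was 199 in 2KO against 178 in WT, 211 against 162, and 222 against 201. At 2-fold, 7 of the 71 members were higher and 2 lower in 2KO basal epidermis, where 4.18% of all genes were higher and 2.59% lower. In matrix 8 members were higher and 1 lower, with 5.79% and 1.04% of all genes. In ORS 14 members were higher and 1 lower, with 5.38% and 3.13% of all genes. As shares of the 71, the higher members came to 9.86%, 11.3% and 19.7%. In all, 18 members (25.4%) were higher in at least 1 population, against 10.6% of all genes, and 3 (4.23%, against 5.55%) were lower in at least 1.

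These counts depend on the floor and the scaling. With the floor at the 75th percentile of signal, 0, 1 and 0 members were higher in basal epidermis, matrix and ORS, where 1.29%, 1.71% and 1.85% of all genes were, and with the floor at the 25th percentile 27, 31 and 30 were, where 9.0%, 11.8% and 10.1% of all genes were. Scaling to a common median gave 5 higher and 3 lower members in matrix (3.91% and 3.16% of all genes) and 10 higher and 4 lower in ORS (3.52% and 5.49%). Scaling to the hybridisation controls gave 5 and 4 in matrix (2.55% and 11.7%) and 12 and 2 in ORS (4.2% and 4.38%). Single calls lost with a common median were those of Lhx3, Meis1, Nkx2-5 and Six4 in ORS (log2 0.99, 0.75, 0.96 and 0.80) and of Meis1, Nkx2-3 and Nkx6-1 in matrix (0.83, 0.99 and 0.98). The hybridisation controls ended those of Meis1 and Six4 in ORS (0.85 and 0.97) and of Meis1, Nkx2-3 and Nkx6-1 in matrix (0.48, 0.63 and 0.90).

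**Figure D2:**
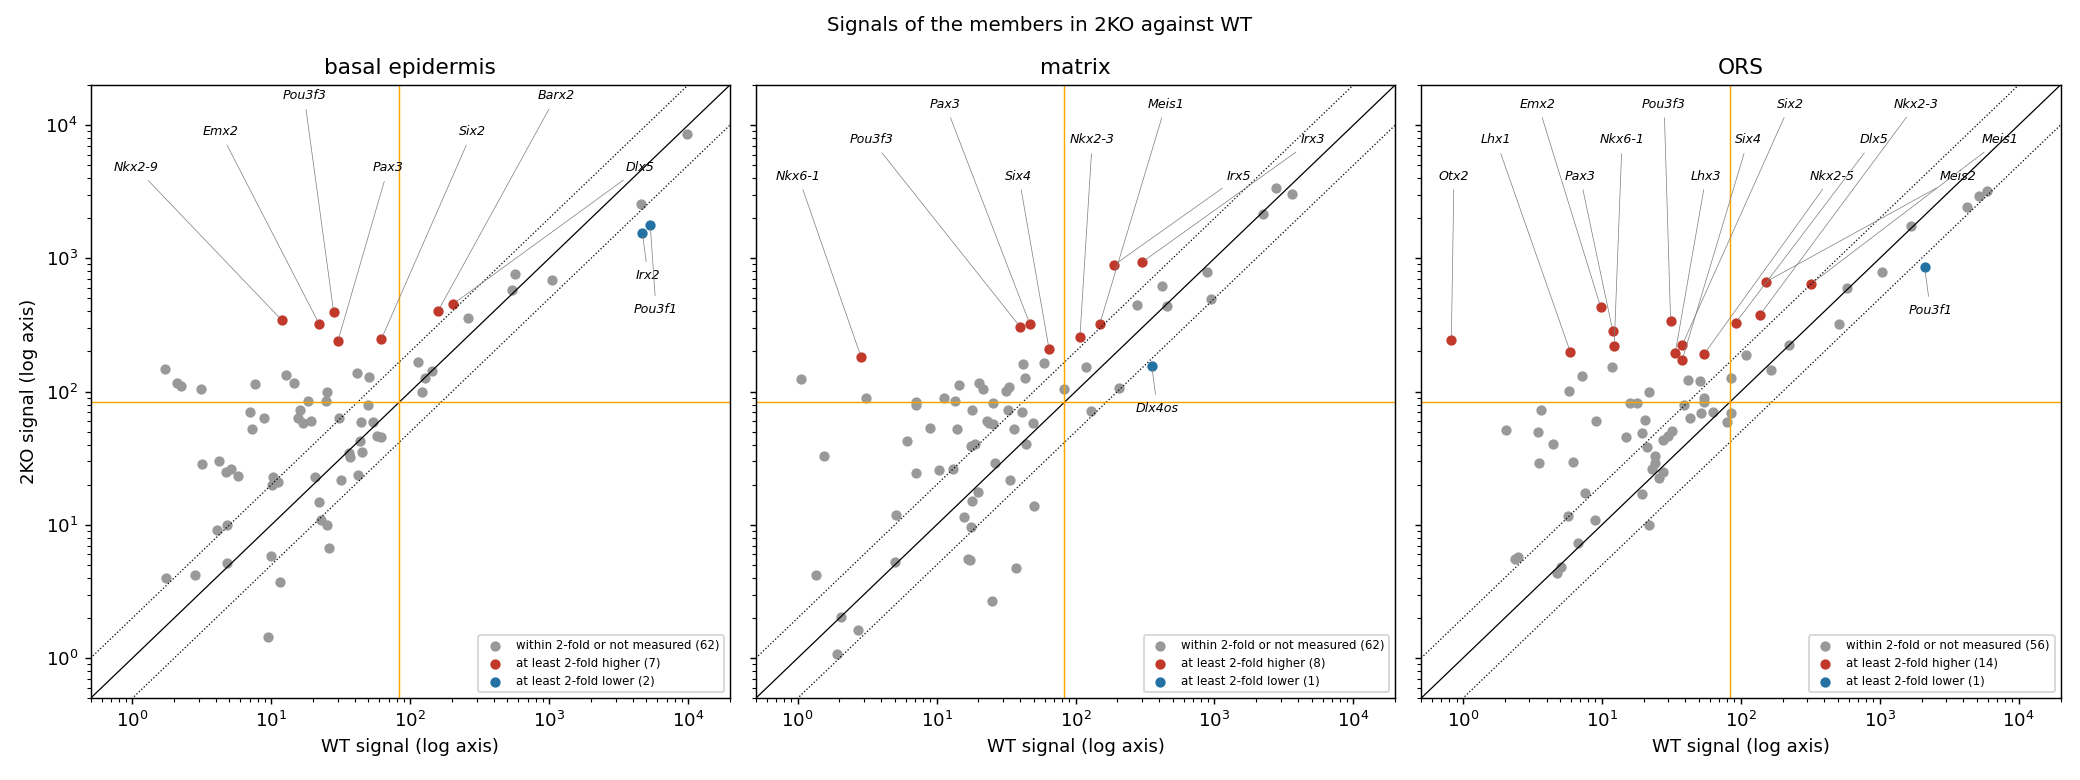
Signal in 2KO against WT for the 71 members in basal epidermis, matrix and ORS, on log axes, 1 point a gene; orange lines mark the floor, the solid line equal signals and dotted lines 2-fold. Named red genes (7, 8 and 14) are at least 2-fold higher after flooring and blue genes (2, 1 and 1) at least 2-fold lower; in basal epidermis and ORS most red genes lie left of the floor line, and grey points far above the dotted line are too dim in 2KO to reach 2-fold over the floor.

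The members that were silent in WT were set beside all genes silent in WT, members included. Silence was called on the WT array of each pair. The groups were still not chosen free of the 2KO values. Each gene's probe set was picked by its mean signal over WT and 2KO arrays together. The member list was drawn up with earlier results of these data known. Of the 57 members under the floor in WT basal epidermis, 17 (29.8%) reached it in 2KO, against 11.6% of the 7542 genes under it. In matrix 18 of 55 did (32.7%, against 15.7% of 7749), and in ORS 18 of 54 (33.3%, against 13.7% of 7187). At least 2-fold over the floor were 5, 4 and 10 of these members (8.77%, 7.27% and 18.5%), against 3.25%, 4.18% and 4.01% of the silent genes. Without any floor, the 2KO signal was the higher one for 42 of 57, 41 of 55 and 47 of 54 (73.7%, 74.5% and 87.0%), where the share over the silent genes was 62.6%, 65.6% and 63.7%. The same 11 members were under the floor on all 3 WT arrays and at or above it on all 3 2KO arrays: Emx2, En2, Lhx9, Nkx2-5, Nkx6-1, Otx1, Otx2, Pax3, Pou3f3, Six2 and Six4. They are 15.5% of the 71 members, against 0.973% of all genes, and 21.6% of the 51 members silent on all 3 WT arrays, against 2.71% of 6543 genes.

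**Figure D3:**
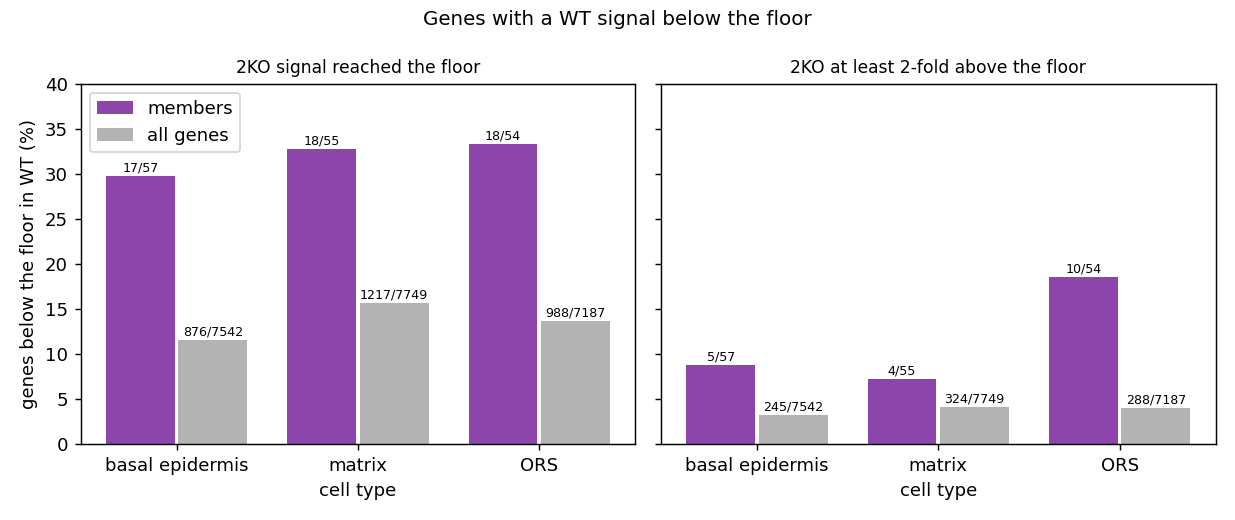
Percent of genes with a WT signal under the floor whose 2KO signal reached the floor (left) or was at least 2-fold over it (right), for members (purple) and all genes (grey) in each population, with counts above the bars. The member bars are 29.8%, 32.7% and 33.3% on the left and 8.77%, 7.27% and 18.5% on the right, each above the grey bar beside it; no error is drawn because each bar compares 1 pair of arrays.

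Members that were already measured in WT were compared in the same way. Of the 14 above the floor in WT basal epidermis 7 had a ratio above 0 and 7 below, with a median log2 ratio of -0.0076 (all genes above the floor -0.0048). In matrix 8 of 16 were above 0 and in ORS 9 of 17, with medians of 0.11 and 0.0041 (all genes -0.026 and -0.036). With the hybridisation controls the matrix ratios of Irx2, Irx4 and Six5 were below 0 (-0.36, -0.071 and -0.26). Those at least 2-fold higher were 2, 4 and 4 (14.3%, 25% and 23.5%, against 4.84%, 6.98% and 6.28% of genes above the floor in WT), and those lower were 2, 1 and 1 (14.3%, 6.25% and 5.88%, against 4.42%, 1.81% and 5.18%).

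The sequence around the start of the gene was read for members that were higher together. CpG-rich promoters are the usual sites of Polycomb repressive complex 2, so CpG dinucleotides are given in capitals in the 250 bases before the start, 5′ to 3′ on the gene's own strand, from RefSeq on GRCm38.p6. The first 4 belong to genes that were silent in all 3 WT populations and at least 2-fold higher in at least 2 of the 2KO populations, and the last 2 to genes active in WT epidermis. They were chosen after their values were seen, from genes with 1 listed start.
Pou3f3: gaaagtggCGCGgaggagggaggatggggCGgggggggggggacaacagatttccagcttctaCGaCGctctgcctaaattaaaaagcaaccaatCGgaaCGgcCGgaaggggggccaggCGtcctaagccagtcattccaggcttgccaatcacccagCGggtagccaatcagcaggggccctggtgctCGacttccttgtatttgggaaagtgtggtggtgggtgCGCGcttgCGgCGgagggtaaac
Emx2: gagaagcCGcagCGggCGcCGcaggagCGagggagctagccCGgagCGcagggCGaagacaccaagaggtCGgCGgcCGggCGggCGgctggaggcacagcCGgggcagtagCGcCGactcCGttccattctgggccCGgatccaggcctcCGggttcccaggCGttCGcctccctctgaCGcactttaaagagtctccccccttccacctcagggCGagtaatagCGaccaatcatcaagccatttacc
Six2: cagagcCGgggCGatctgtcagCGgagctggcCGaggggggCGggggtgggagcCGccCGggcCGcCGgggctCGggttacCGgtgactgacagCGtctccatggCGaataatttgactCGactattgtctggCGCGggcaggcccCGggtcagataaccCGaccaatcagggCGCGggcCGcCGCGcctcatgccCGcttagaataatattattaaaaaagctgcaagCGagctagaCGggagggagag
Nkx6-1: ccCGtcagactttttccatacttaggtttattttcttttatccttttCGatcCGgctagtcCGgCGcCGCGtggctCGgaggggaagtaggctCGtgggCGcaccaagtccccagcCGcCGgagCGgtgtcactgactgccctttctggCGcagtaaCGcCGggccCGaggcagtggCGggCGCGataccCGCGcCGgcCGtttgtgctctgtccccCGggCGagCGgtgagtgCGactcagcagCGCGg
Irx3: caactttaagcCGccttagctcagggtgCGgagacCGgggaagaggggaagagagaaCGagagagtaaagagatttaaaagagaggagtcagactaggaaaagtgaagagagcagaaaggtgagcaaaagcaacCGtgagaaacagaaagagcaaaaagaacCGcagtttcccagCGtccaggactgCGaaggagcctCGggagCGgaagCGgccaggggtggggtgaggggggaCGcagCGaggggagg
Irx2: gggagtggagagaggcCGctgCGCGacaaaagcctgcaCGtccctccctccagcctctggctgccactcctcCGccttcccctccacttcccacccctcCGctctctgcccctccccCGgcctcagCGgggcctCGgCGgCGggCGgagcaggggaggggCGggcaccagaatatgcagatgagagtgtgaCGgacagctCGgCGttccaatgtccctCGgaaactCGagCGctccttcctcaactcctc
These lie at chr1:42695518-42695767 (plus strand), chr19:59458440-59458689 (plus), chr17:85688255-85688504 (minus), chr5:101664712-101664961 (minus), chr8:91801655-91801904 (minus) and chr13:72628570-72628819 (plus). The motif searched was CG, which reads the same on both strands. Over the whole 300-base window, which runs 50 bases past the start, the count was 18 for Pou3f3, 26 for Emx2, 37 for Six2 and 40 for Nkx6-1. It was 14 for Irx3 and 25 for Irx2. The median over 32851 windows was 7, and 94.6% of windows hold at least 1. Windows with at least as many made up 29.7% for Pou3f3, 16.9% for Emx2, 5.58% for Six2, 3.91% for Nkx6-1, 36.3% for Irx3 and 18.4% for Irx2. The CpG counts of the silent and the active genes shown overlapped. No summary over all members was made, and 50 of the 71 have a listed window. The genes shown were picked by their values, so their counts are no comparison of silent with active members.

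Of the POU genes, Pou3f3 was higher and Pou3f1 lower in 2KO. Pou3f3 (Brn1), a factor of the forebrain and kidney, read 28.1 in WT against 395 in 2KO basal epidermis, 40.2 and 304 in matrix, and 31.3 and 340 in ORS. All 3 WT signals were under the floor and all 3 2KO signals well over it, which bounds the folds at 4.75 or more, 3.65 or more and 4.09 or more (2KO higher). A second Pou3f3 probe set stayed under the floor on all 6 arrays. The mean of both gave log2 ratios of at least 0.27 in basal epidermis and at least 0.38 in matrix. In ORS that mean was under the floor in both genotypes, so it gave no ratio. In basal epidermis Pou3f1 read 5336 in WT against 1768 in 2KO (3.02-fold lower). ORS signals were 2105 against 856 (2.46-fold lower), and matrix signals 2235 against 2142. Its second probe set read 2042 and 645, 776 and 263, and 1114 and 727. Both probe sets were thus lower in 2KO basal epidermis and ORS, while in matrix the brighter one differed by 1.04-fold. In WT, Pou3f1 was 2.39-fold brighter in basal epidermis than in matrix and 2.54-fold brighter than in ORS. Pou4f1, a factor of sensory neurons, reached 109 in 2KO matrix and 85.1 in 2KO basal epidermis, close to the floor.

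Pax3, a paired-box factor of the neural crest, melanocytes and muscle precursors, was the other member at least 2-fold higher in all 3 populations. It read 30.1 in WT against 238 in 2KO basal epidermis, 46.9 and 321 in matrix, and 11.97 and 287 in ORS. The WT signals were all under the floor, which makes it at least 2.86-fold, 3.85-fold and 3.45-fold higher. The other 2 Pax3 probe sets were also under the floor in every WT array and over it in every 2KO array, at 2KO signals of 111 to 284. Of 5 melanocyte markers none was 2-fold higher in 2KO, and the sums were 934 in WT and 653 in 2KO basal epidermis, 2961 and 1677 in matrix, and 1148 and 758 in ORS. In matrix the sum moved through Dct (2245 and 936), while Pmel (258 and 279) and Mlana (153 and 198) read higher in 2KO. Of 6 muscle markers, 4 were higher in 2KO matrix (Acta1, Myl1, Tnnc2 and Mylpf), 1 in ORS (Des, 2.81-fold) and 0 in basal epidermis; Ckm was under the floor on all 6 arrays. The part of melanocytes and muscle cells in the Pax3 values was not tested. Members at least 2-fold higher in all 3 populations were 2 of 71 (2.82%), against 1.17% of all genes.

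Other Pax genes were dimmer. Pax9, a factor of the pharynx, teeth and tongue epithelium, read 41.3 in WT against 138 in 2KO basal epidermis and 50.7 and 119 in ORS, at least 1.66-fold higher in the first. One of its other probe sets showed a wider gap, from 1.26 to 334 in basal epidermis and from 25.5 to 231 in ORS, so the choice of probe set decides whether Pax9 passes 2-fold. Pax7, of muscle satellite cells, read 3.14 in WT against 104 in 2KO basal epidermis and stayed under the floor on the other 4 arrays. Pax6, the eye and brain factor, was between 40.2 and 85.3 on all 6 arrays by its brightest probe set, yet another of its 5 read 22.5 in WT against 272 in 2KO basal epidermis, 2.25 and 136 in matrix, and 2.33 and 302 in ORS. By that probe set Pax6 was at least 3.27-fold, 1.63-fold and 3.64-fold higher, and the other 3 were under the floor on all 6 arrays.

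Head, brain and gut factors were among the other members that were silent in WT and measured in 2KO. Emx2, a cortex and urogenital factor, read 22.2 in WT against 320 in 2KO basal epidermis, 11.3 and 89.5 in matrix, and 9.8 and 431 in ORS. In ORS the 2KO signal was at least 5.18-fold higher, the largest bound among the members there, in basal epidermis at least 3.84-fold, and in matrix it was just over the floor. Otx2, a forebrain and eye factor, read 1.72 in WT against 148 in 2KO basal epidermis, 1.06 and 124 in matrix, and 0.83 and 243 in ORS, at least 2.93-fold higher in ORS and below 2-fold over the floor elsewhere. En2, a midbrain and hindbrain factor, read 110, 116 and 131 on the 2KO arrays and at most 20.3 on the WT arrays.

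The Nkx genes specify parts of the heart, gut, pancreas and ventral neural tube. Nkx2-9 was high on 1 array alone, at 343 in 2KO basal epidermis against 11.9 in WT (at least 4.12-fold higher). It read 14.0 and 52.6 in WT and 2KO matrix and 16.0 and 81.7 in ORS. Nkx6-1, of pancreatic beta cells and motor neuron progenitors, read 2.09 in WT against 116 in 2KO basal epidermis, 2.87 and 181 in matrix, and 12.3 and 221 in ORS. The bounds were 2.66-fold or more in ORS and 2.18-fold or more in matrix. Nkx2-5, the heart factor, read 50.4 and 128, 43.3 and 126, and 54.5 and 192, at least 2.31-fold higher in ORS. Nkx2-3, of gut and spleen mesenchyme, was over the floor on every array, at 113 and 168, 108 and 259, and 137 and 378. This probe set was 2.75-fold higher in ORS and 2.40-fold in matrix. The mean over its 3 probe sets was under the floor in WT and gave log2 ratios of at least 0.32 in ORS and 0.31 in matrix.

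Of the sine oculis homeobox factors, which pair with Eya coactivators in kidney, muscle and sensory organs, Six2 and Six4 were higher and Six5 was level. Six2, a nephron progenitor factor, read 62.0 in WT against 248 in 2KO basal epidermis, 59.8 and 164 in matrix, and 37.9 and 224 in ORS. The bounds are at least 2.98-fold, 1.97-fold and 2.69-fold. Six4 read 14.5 and 117, 64.5 and 209, and 37.8 and 172, with bounds of 2.52-fold or more in matrix and 2.07-fold or more in ORS. Another 2 of its probe sets gave 2KO signals of 122 to 273 and WT signals of 0.37 to 29.6. Six5, which is made in many tissues, read 142 and 143, 119 and 153, and 224 and 224.

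The Lhx members, LIM homeobox genes that specify neurons and organ primordia, were under the floor on all 3 WT arrays, and 4 of them reached it in 2KO ORS, 3 in 2KO matrix and 1 in 2KO basal epidermis. Lhx1 read 5.92 in WT against 200 in 2KO ORS, at least 2.40-fold higher, against 7.26 and 52.4 in basal epidermis and 3.13 and 89.1 in matrix. Lhx3, a pituitary and motor neuron factor, read 33.8 and 196 in ORS, at least 2.36-fold higher, and 57.3, 46.3, 36.3 and 52.6 on the other 4 arrays; its other probe set was under the floor on all 6. Lhx9 read 85.3, 105 and 154 on the 2KO arrays of basal epidermis, matrix and ORS, against 18.3, 21.6 and 11.8 in WT. Lhx6 and Lhx8 peaked at 121 in 2KO ORS and 83.3 in 2KO matrix.

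Iroquois (Irx) genes, patterning factors that lie in a pair of 3-gene clusters, include 5 members that were over the floor on all 6 arrays, and they differed in another way. In WT, Irx3 and Irx5 were brighter in basal epidermis and ORS than in matrix. Irx3 read 9870 in basal epidermis, 5915 in ORS and 299 in matrix, and Irx5 read 4600, 4272 and 190. Irx3 was thus 33.0-fold and Irx5 24.2-fold brighter in WT basal epidermis than in WT matrix. In 2KO, Irx3 read 8585 in basal epidermis, 3188 in ORS and 931 in matrix, and Irx5 read 2551, 2410 and 893. Both were higher in 2KO matrix, by 3.11-fold and 4.70-fold, and lower by under 2-fold in basal epidermis (1.15-fold and 1.80-fold) and ORS (1.86-fold and 1.77-fold). In 2KO the gap between basal epidermis and matrix was 9.22-fold for Irx3 and 2.86-fold for Irx5. The same array had higher basal and ORS markers, as given above, and their part in the matrix values of Irx3 and Irx5 was not tested. With the floor at the 75th percentile the log2 ratio of Irx5 in matrix was 0.94. Once arrays were brought to a common median, Irx2, Irx3 and Irx5 were each past 2-fold lower in ORS (log2 -1.09, -1.14 and -1.08).

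The genes of the other Irx cluster followed in part. Irx2 read 4678 in WT against 1559 in 2KO basal epidermis, 3.00-fold lower. It read 2783 and 3370 in matrix, and 5215 and 2921 in ORS. Irx4 read 1050 and 686, 422 and 623, and 1676 and 1733, and Irx1 read 540 and 582, 276 and 450, and 1041 and 784. All 5 of these Irx genes were brighter in 2KO than in WT matrix, Irx1, Irx2 and Irx4 by 1.63-fold, 1.21-fold and 1.48-fold. The matrix ratio of Irx2 was under 0 after scaling to a common median (log2 -0.0031), and those of Irx2 and Irx4 also with the hybridisation controls, as given above. Irx6, next to Irx5, was under the floor on all 6 arrays.

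**Figure D4:**
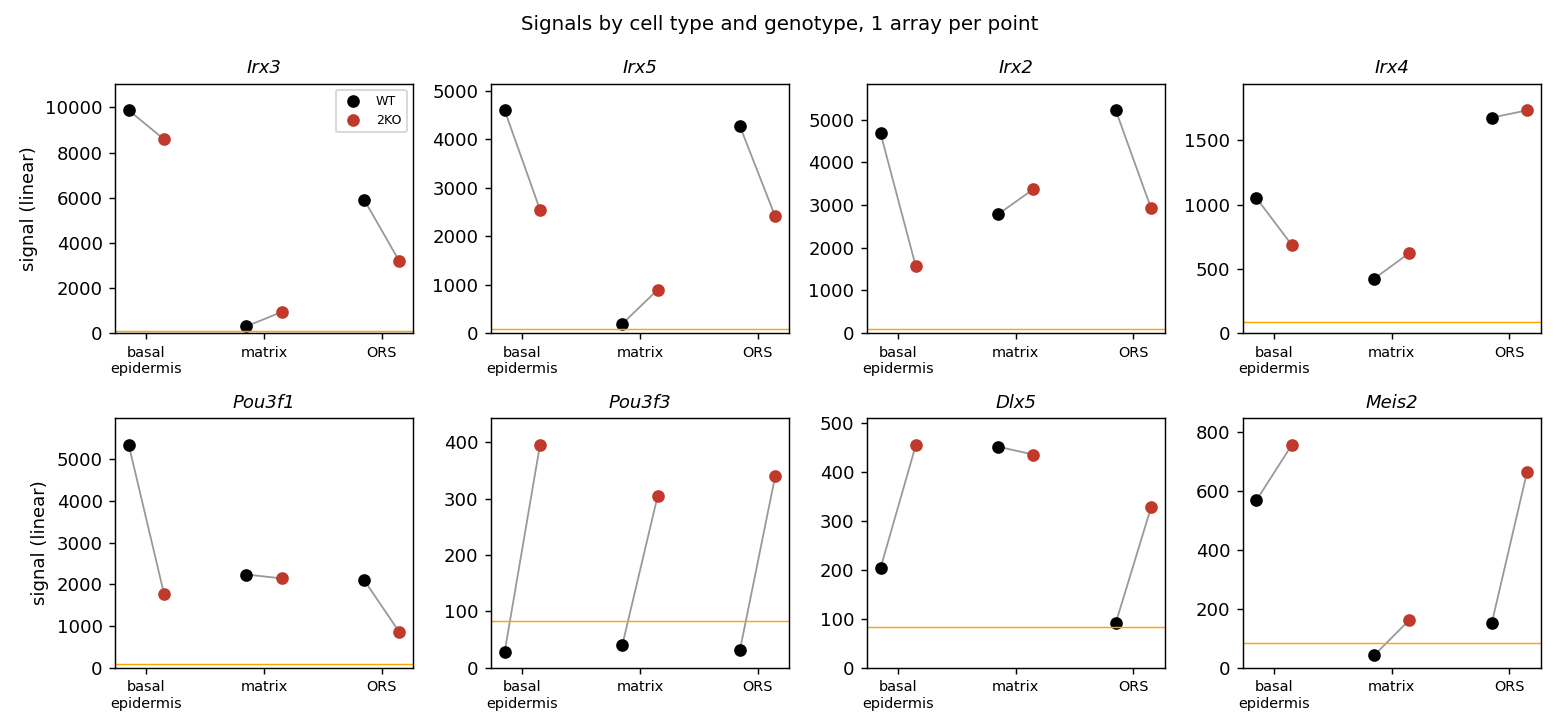
Signal on a linear axis for Irx3, Irx5, Irx2, Irx4, Pou3f1, Pou3f3, Dlx5 and Meis2 by population, with WT in black and 2KO in red, 1 array a point and the floor in orange. Irx3 and Irx5 join upward in matrix and downward in basal epidermis and ORS, Pou3f1 is lower in 2KO basal epidermis and ORS, and Pou3f3 crosses the floor in all 3 populations.

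Of the Dlx members, 6 were brighter in matrix than in both other WT populations, and in 2KO matrix Dlx1, Dlx2 and Dlx5 were close to level while Dlx4 and the noncoding Dlx1as and Dlx4os read lower. Dlx2 read 3640 in WT against 3038 in 2KO matrix, 584 and 601 in ORS, and 127 and 126 in basal epidermis. It was 28.6-fold brighter in WT matrix than in WT basal epidermis and 24.1-fold brighter in the same 2KO pair. Dlx1, its neighbour, read 880 and 792 in matrix, 109 and 190 in ORS, and 16.2 and 72.8 in basal epidermis. Dlx4 read 949 and 493 in matrix (1.93-fold lower), and its second probe set 663 and 284. Dlx4os, a noncoding transcript beside Dlx4, read 353 and 157 in matrix (2.25-fold lower) and was the 1 member called lower there; it read 36.5 and 32.1 in basal epidermis and 54.4 and 89.4 in ORS. Dlx1as, antisense to Dlx1, read 205 and 106 in matrix (1.94-fold lower) and was under the floor on the other 4 arrays. The summed matrix markers were 40925 in 2KO against 51339 in WT matrix, but the markers differed. Shh was 2.86-fold higher in 2KO matrix, and Msx2 and Wnt10b were 2.78-fold and 2.20-fold lower. Hoxc13, Lef1, Krt25 and Krt35 were lower by under 2-fold. The part of the matrix markers in these Dlx values was not tested.

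Dlx5, a factor of limb, bone and branchial arches, was the Dlx member that was higher outside the matrix. It read 204 in WT against 455 in 2KO basal epidermis (2.23-fold higher), 91.8 and 328 in ORS (3.57-fold higher), and 452 and 436 in matrix. In WT it was 2.22-fold and 4.92-fold brighter in matrix than in basal epidermis and ORS. In 2KO these gaps were 1.04-fold, with basal epidermis the brighter, and 1.33-fold. Dlx6, which lies next to Dlx5, read at most 11.9 on any array.

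Meis genes encode homeodomain cofactors that bind DNA with Hox and Pbx proteins. Meis2 read 151 in WT against 664 in 2KO ORS (4.40-fold higher), 569 and 756 in basal epidermis, and 41.9 and 162 in matrix (at least 1.95-fold higher). Its next brightest probe set read 71.7 and 425 in ORS. Another read 59.1 and 105 in ORS, at least 1.27-fold higher, and 79.0 and 173 in basal epidermis, at least 2.08-fold higher. The remaining probe set was under the floor on every array. In WT, Meis2 was 3.77-fold brighter in basal epidermis than in ORS, and in 2KO 1.14-fold. Meis1 read 261 and 354, 149 and 322, and 319 and 640, a difference of 2.01-fold in ORS and 2.15-fold in matrix, with 2KO the higher. Besides the scalings above, the mean of its 3 probe sets ended both Meis1 calls (log2 0.54 in ORS and at least 0.73 in matrix). The fibroblast marker sum was higher in 2KO ORS and 2KO matrix, as given above. In ORS it moved mostly through Dcn (928 and 4254) and Vim (3364 and 6229), and of 8 markers Dcn alone was past 2-fold. Col1a1 read 937 and 735 there, Col1a2 4993 and 5097, and Col3a1 5993 and 5959. The part of fibroblasts in the Meis values was not tested. Prrx1, a homeobox gene of dermal and limb mesenchyme, read 53.9 and 59.4, 31.5 and 101, and 84.8 and 125.

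Barx2, a factor of hair follicle and glandular epithelium, differed in opposite directions. It read 159 in WT against 403 in 2KO basal epidermis (2.54-fold higher), and 512 and 323 in ORS (1.59-fold lower). In matrix it read 13.6 and 85.6. In WT it was 3.23-fold brighter in ORS than in basal epidermis, and in 2KO 1.25-fold brighter in basal epidermis. Alx1, a head mesenchyme factor, read 12.7 in WT against 133 in 2KO basal epidermis, and it was under the floor on the other 4 arrays.

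Members that lie side by side were set beside each other. In the RefSeq gene table, Nkx2-1, Nkx2-9 and Pax9 follow each other without another protein-coding gene between them. In 2KO basal epidermis Nkx2-9 read 343 and Pax9 138, while Nkx2-1 read 4.20. Six3 and Six2 are neighbours too, and read 115 and 248 there, against 7.67 and 62.0 in WT. The other Six3 probe sets stayed under the floor in basal epidermis, at 77.2 in WT and 60.1 in 2KO, and at 1.60 and 2.62. Nkx2-4, Nkx2-2 and Pax1 adjoin, and of these Pax1 alone reached the floor, at 102 in 2KO ORS.

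Members past 2-fold between WT populations are given as a description, beside the share of all genes. Basal epidermis exceeded matrix by 2-fold for 5 members (7.04%, against 8.57% of all genes), namely Irx3, Irx4, Irx5, Meis2 and Pou3f1, and matrix exceeded basal epidermis for 6 (8.45%, against 7.03%), all of them Dlx members. ORS exceeded matrix for 6 (8.76% of all genes), Barx2, Irx1, Irx3, Irx4, Irx5 and Meis1, and matrix exceeded ORS for the same 6 Dlx members (5.4% of all genes). Dlx5, Meis2 and Pou3f1 were higher in WT basal epidermis than in WT ORS (2.58% of all genes), and Barx2 and Dlx2 lower (3.66%). These pairs share arrays.

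Of partner proteins, 24 were matched of 25 listed: Pbx and Pknox proteins, which bind with Meis; Eya and Dach proteins, which bind with sine oculis factors; Ldb, Lmo and Ssbp proteins, which bind with LIM factors; and Tle corepressors. In basal epidermis 1 was higher and 5 lower (4.18% and 2.59% of all genes), in matrix 4 and 1 (5.79% and 1.04%), and in ORS 2 and 1 (5.38% and 3.13%). Dach1 was lower in all 3. It read 350 against 141 in basal epidermis (2.48-fold), 902 against 342 in matrix (2.64-fold), and 1344 against 357 in ORS (3.76-fold), WT first. Eya1 read 44.97 in WT against 578 in 2KO ORS, at least 6.94-fold higher, and 85.9 and 200 in basal epidermis. Lmo1 read 104 and 623 in matrix, 6.02-fold higher, with 4138 and 3189 in WT basal epidermis and ORS. Ldb1, which bridges LIM factors, read 1207 and 456 in basal epidermis (2.65-fold lower).

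Of 67 other homeobox genes listed, 58 were matched, with 8 higher and 3 lower in basal epidermis, 5 and 3 in matrix, and 10 and 0 in ORS, beside the same all-gene shares. The largest bounds were those of Pitx1 (9.34-fold or more), Isl1 (9.02-fold or more), Hmx1 (6.10-fold or more) and, above the floor on both arrays, Zfhx3 (7.81-fold) in basal epidermis. Satb1, a chromatin organiser, read 1397 in WT against 215 in 2KO basal epidermis. In matrix, Pitx1, Isl1, Vax2, Zfhx4 and Shox2 were higher, Pitx1 by at least 4.07-fold and Isl1 by at least 3.04-fold. There Msx2, Dlx3 and Msx1, factors of the hair bulb, were 2.78-fold, 2.21-fold and 2.03-fold lower. In ORS, Zfhx3, Zfhx4 and Isl1 led, at 7.42-fold, 7.28-fold or more and 6.76-fold or more higher. Merkel cell markers were higher on the same arrays, with sums over 5 genes of 368 in WT and 2548 in 2KO basal epidermis, 244 and 1492 in matrix, and 847 and 3926 in ORS. Of these Atoh1, which defines the lineage, was under the floor on all 6 arrays, Krt20 reached it only in 2KO basal epidermis (100), and Sox2 read 509, 324 and 507 in 2KO.

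For members with several probe sets, the others were read beside the calls. In basal epidermis, matrix and ORS, 2, 5 and 8 of the higher calls were in genes with another probe set. Those genes had 3, 10 and 15 other probe sets, of which 2, 6 and 9 reached the floor on either array of the pair. Each of these was higher in 2KO as well, and 1, 3 and 2 of them at least 2-fold. Apart from 1 each of Meis1 and Nkx2-3 in ORS, all of them were under the floor in WT. Such a probe set was counted only through its 2KO signal, so its direction was fixed in advance and is no check of the call.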

How the data were processed

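RNA of 6 FACS-sorted samples was labelled by in vitro transcription and hybridised to Affymetrix mouse arrays, per the labels' protocols. The authors deposited 1 MAS5 signal intensity per probe set and array, on a linear scale, per the submitters' processing notes, which name MAS5, and the series text adds that images were background-subtracted. The sources used here do not give its version. The 2% trimmed mean is 500 on each array, so a shift of most genes one way cannot be seen, and no further scaling was applied. Of 45101 probe sets, 34945 name 1 gene in the platform annotation and gave 18193 genes, each read from its brightest probe set by mean log2 signal over the arrays; 932 naming several genes, 64 controls and unnamed probe sets were left out. All 71 member gene IDs were found in the RefSeq table of GRCm38.p6. Signals were raised to the median of non-control probe sets (83.2), and log2 ratios of 2KO over WT were called at 2-fold, the fold the series text uses. The number of arrays limits the precision: with 1 array a group there is no spread, and the counts carry no p-value. The calling of genes was checked on simulated data with an assumed noise. The changes planted there were in genes well over the floor in WT, so calls in genes silent in WT were not covered. The alternatives were other floors, scalings, probe set rules and folds.

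The members and lists were chosen with earlier results of these data known. All 6 array values are given for members past 2-fold in at least 1 population with a signal over 2 times the floor, for the 10 brightest members in WT, and for Irx5, Pou3f3 and Pou3f1; of the partner and other homeobox lists, up to 4 genes a population are named, with further genes named after their values were seen. Other members named were chosen after their values were seen. Python 3.11.15, pandas 2.3.3, numpy 2.4.6 and matplotlib 3.10.9 were used.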

Additional observations from a re-analysis of the deposited data

Results flagged for a closer look

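Several members differed between 2KO and WT in opposite directions in a pair of populations, with at least 2-fold in 1 of them. The difference between the populations was not tested, because each rests on 1 array a group. Values are the log2 ratio of 2KO over WT in the first population minus that in the second. Irx5 differed by -3.08 between basal epidermis and matrix and by 3.06 between matrix and ORS. Irx3 differed by -1.84 and 2.53 in the same pairs, and Irx2 by -1.86 between basal epidermis and matrix. Barx2 differed by 2.01 between basal epidermis and ORS. Dlx5 differed by 1.21 between basal epidermis and matrix and by -1.89 between matrix and ORS, where its matrix ratio was close to 0. Dlx4os differed by -1.28 between matrix and ORS, with an ORS signal close to the floor.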

How the results depend on the processing

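No paired analysis was possible because each group has 1 array and no replicate numbers. Counts of higher members in basal epidermis, matrix and ORS were 7, 8 and 14, and of lower members 2, 1 and 1. With the floor at the 25th percentile 27, 31 and 30 were higher and 2 lower in matrix; with the floor at the 75th percentile 0, 1 and 0 were higher and 0 lower in matrix, since few members are that bright. Scaling to a common median gave 5 higher and 3 lower in matrix and 4 lower in ORS, and scaling to the hybridisation controls 5 and 4 in matrix and 2 lower in ORS. Quantile normalization gave 2 lower in matrix. The mean over all probe sets gave 4 higher and 2 lower in matrix and 8 higher in ORS. At 1.5-fold 11 were higher in basal epidermis and 4, 4 and 5 lower in basal epidermis, matrix and ORS; at 3-fold 3, 4 and 5 were higher and 0 lower in matrix and ORS. Protein-coding members alone, a choice made after the data were seen, left 0 lower in matrix. The other counts stayed within 1.5 times. Of 33 called ratios of single genes, 26 kept their call with a common median, 28 with the hybridisation controls and 31 with quantile normalization, 22 of 30 did with the mean over probe sets, and 4 of the 7 with a value did with the floor at the 75th percentile. Among called ratios that had a value under a setting, 0 changed sign under the 7 settings run for single genes. The median log2 ratio of genes with a nonzero ratio went from 0.04, 0.03 and 0.01 to -0.07, -0.24 and -0.23 with a common median and to -0.06, -0.58 and -0.14 with the hybridisation controls. Signals near the floor limit what can be said of most members, which have bounds only.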
